A study of Danio rerio with 18 samples.

Results

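Gastrulating zebrafish embryos were represented by 4 tRNA libraries, 2 from shield and 2 from bud, out of the 12 libraries of the series in which tRNA abundance was measured and the 18 libraries in all. The 4 were chosen by their stage labels and were set against the other 8 abundance libraries, which held every earlier stage, namely egg, 256-cell, 1000-cell and sphere, with 2 libraries each. Shield and bud embryos were 6 and 10 hours post-fertilization (hpf) old. The earlier stages stood at 0, 2.5, 3 and 4 hpf in the order given. All 12 libraries came from pools of wild-type, unperturbed eggs or embryos of the TLAB strain. The labels give 50 per sample at every stage, whereas the methods give, for embryos, a range that starts at this number, and state that replicates were collected on different days. The labels name shield and bud as gastrula and 256-cell, 1000-cell and sphere as blastula. tRNA counts carry no marker genes, so these labels were taken as given. Each library averages over all cells of whole embryos, so a tRNA made by few cells and one made weakly by many cells cannot be told apart. The 6 libraries on tRNA charging are not used here.

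Transfer RNAs that carry the same anticodon but differ elsewhere in their sequence are called isodecoders, and together they form an anticodon family. Members of a family read the same codons, so an exchange between them leaves the supply of that anticodon as it was, whereas a change of the whole family alters it. Vertebrate genomes hold many isodecoder genes per family, transcribed by RNA polymerase III from promoters inside the gene, and only some of them are active in a given cell. In fish the egg is loaded with maternal tRNA before fertilization, and transcription of the embryo's own genome starts during the blastula stages.

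The measured quantity was therefore the share of a transcript in the counts of its own anticodon family. Sequencing was by mim-tRNAseq, in which reverse transcription passes modified bases and each read is placed on a single transcript wherever sequence differences allow. The table listed 2505 single nuclear transcripts and 73 groups that could not be separated, and these groups were kept in the family totals. A transcript was called detected when 1 library or more gave it 0.005% of its nuclear counts, and this was met by 607 transcripts and 54 groups in 47 families. Detected transcripts numbered 10.5 per family in the median family and 38 in the richest. For 2 families there was no internal share to compare, because initiator methionine (iMet-CAU) was 1 unresolved group and selenocysteine (SeC-UCA) was 1 transcript. Transcripts of a family may differ by only a few bases and reads may then be misplaced, so the share of a single transcript is less certain than the level of its family.

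Library totals ranged between 3417973 and 5757862 counts in the gastrula libraries and between 977425 and 10121680 in the earlier ones. Single transcripts held 72.0% to 74.5% of the nuclear counts in gastrula and 70.6% to 73.9% earlier. Mitochondrial tRNAs took 8.31% to 11.9% of all counts in gastrula libraries, against 15.7% to 19.0% earlier, and they were left out of every total used below. Whether depth or the mitochondrial share has a part in the differences was not tested.

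The composition of the nuclear pool was first compared without any test. Between the mean gastrula and the mean earlier pool, 11.3% of nuclear counts were redistributed, meaning that this percentage of the pool would have to be moved from some transcripts to others to turn one pool into the other. Of this, 5.95 percentage points were differences between anticodon families. The remaining 5.34, or 47.3% of the total, were counted as exchanges inside families. As a remainder, this part holds only the smaller of the gains and the losses in a family that rose or fell. Percentages of family counts redistributed, given further below, are taken on shares and hold all movement inside the family. At shield the redistribution against the earlier stages was 7.74%, with 5.59 points between families and 2.15 inside them. At bud it was 16.1%, with 6.99 points between families and 9.14 inside them. The part inside families thus made up 56.7% of the redistribution at bud and 27.8% at shield. Between the means of 2 earlier stages the redistribution reached 7.55% (256-cell against egg), with 1.79 points inside families. The part inside families reached 27.2% of the total there (1000-cell against egg). The total and the percentage inside families at shield were thus close to those between earlier stages.

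Single pairs of libraries gave the scale of replicate error for these 2 parts. Inside families, the 16 pairs of a bud and an earlier library were 7.89% to 10.4% apart, and the 16 pairs of a shield and an earlier library 1.99% to 4.59%. Replicates of the same stage were 1.39% to 2.01% apart and libraries of different earlier stages 1.06% to 2.89%. All bud pairs therefore lay above all pairs without a gastrula library, while shield pairs overlapped with them. Between families, the same 4 kinds of pairs were 7.90% to 9.99%, 5.12% to 9.83%, 4.42% to 7.67% and 3.42% to 10.3% apart, so that this part overlapped between gastrula and earlier pairs. The 4 pairs of a bud and a shield library were 6.19% to 7.39% apart inside families and 6.44% to 7.80% between them.

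**Figure D1:**
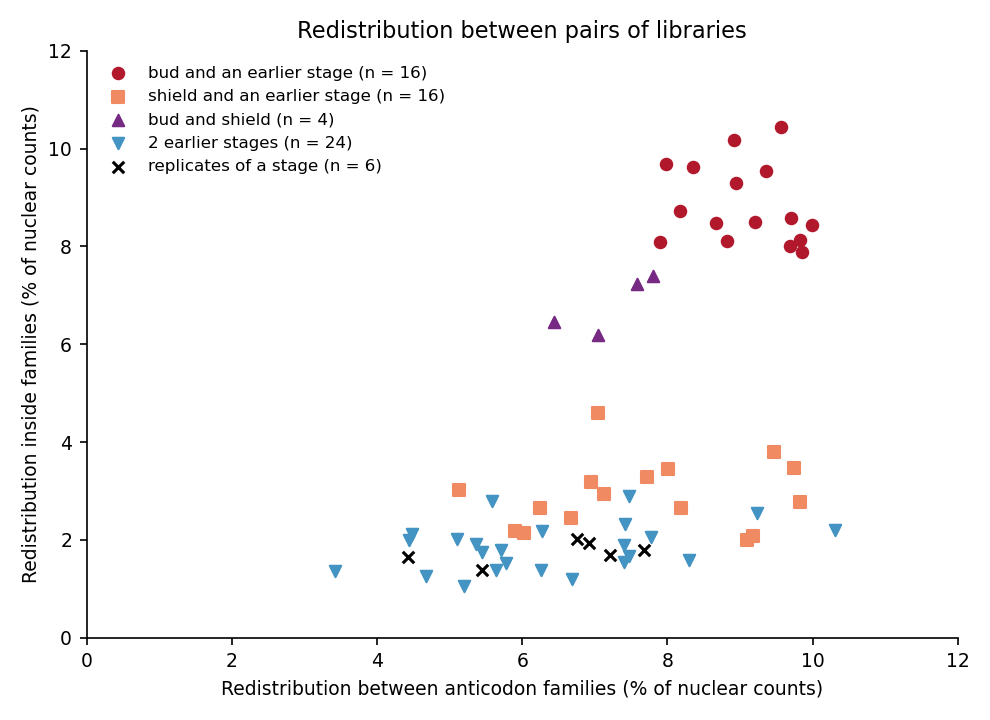
Each point is a pair of abundance libraries, placed by the percentage of nuclear counts redistributed between anticodon families (horizontal axis) and inside them (vertical axis). Pairs with a bud library and an earlier one sit between 7.89% and 10.4% on the vertical axis, above every pair of earlier libraries, which end at 2.89%, while on the horizontal axis the kinds of pairs overlap.

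Next, each transcript was tested for a different share of its family. Of the 606 transcripts that could be tested, 227 had a different share in gastrula than in the earlier stages (37.5% of those tested), with 71 higher (11.7%) and 156 lower (25.7%). Transcripts that gained had a median log2 change of share of 1.23, or 1.82 percentage points of the family. Those that lost had a median log2 change of -0.72, or -0.53 points, where the median of all detected transcripts was itself at -0.23. Fewer and larger gains thus stood against more and smaller losses. Shares of a family add up to the whole, so gains and losses inside it are not independent. The 71 transcripts held 11.9% and 11.6% of nuclear counts at shield and 20.3% and 19.9% at bud, against 8.19% to 9.91% in the earlier libraries. The 156 held 22.3% and 22.2% at shield and 17.3% and 17.8% at bud, against 25.1% to 27.1% earlier. These sums describe transcripts that were chosen by the same contrast and test nothing further. Libraries did not overlap for 48 of the 71 gains and 61 of the 156 losses, and over all detected transcripts the 4 gastrula libraries lay above all 8 earlier ones in 8.57% and below them in 10.4%.

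A call on share was then set beside the level of the transcript and of its family. Levels of single transcripts differed for 194 of 607 (32.0%), with 101 higher (16.6%) and 93 lower (15.3%), and levels of whole families for 19 of 47 (40.4%), with 12 higher (25.5%) and 7 lower (14.9%). The split of transcript levels depended on how libraries were scaled, being 73 higher and 139 lower with total nuclear counts and 108 higher and 63 lower with TMM factors, and family levels split into 10 higher and 11 lower under both. The median transcript stood at -0.06 on the log2 scale with the scaling used, at -0.24 with total nuclear counts and at -0.00172 with TMM factors. Shares inside families do not depend on the scaling. Without shield replicate 1 the count of transcript levels was 129, and without bud replicate 1 it was 116.

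The 2 tests sorted the detected transcripts by the calls they passed. For 144 transcripts in 27 families the share passed the test while the family did not, 52 of them higher and 92 lower. For 83 both passed. Of all tested transcripts 37.5% had a call on share. Families called and not called hold different numbers of detected transcripts, so 144 and 83 do not compare the 2 kinds of family. In 47 of these 83 the family rose and the share of the transcript fell, and in 12 the family and the share both rose. In 7 the family fell and the share rose, and in 17 both fell. Rising and falling families also differ in their numbers of detected transcripts, and over all tested transcripts 25.7% lost share and 11.7% gained. These counts are therefore no measure of how often a share falls when its family rises. A call on level and family but none on share was found for 31 transcripts in 10 families, 26 higher and 5 lower. A test that was not passed does not show that a share or a family stayed the same. Among families not called, Leu-UAG (log2 change 0.36) and Val-CAC (-0.24) were near the threshold, each with a DESeq2 adjusted p of 0.0573. A further 9 passed in level only, and 340 in neither share nor level. Of the 71 transcripts with a higher share, 68 also had a higher level and 3 did not pass the level test. Of the 156 with a lower share, 86 had a lower level and 70 did not pass the level test. All counts here that use a level or family call rest on the median-of-ratios scaling. Over all detected transcripts, lower levels numbered 93 with it, 139 with total nuclear counts and 63 with TMM factors. How many of the 156 lost level thus depends on the scaling.

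**Figure D2:**
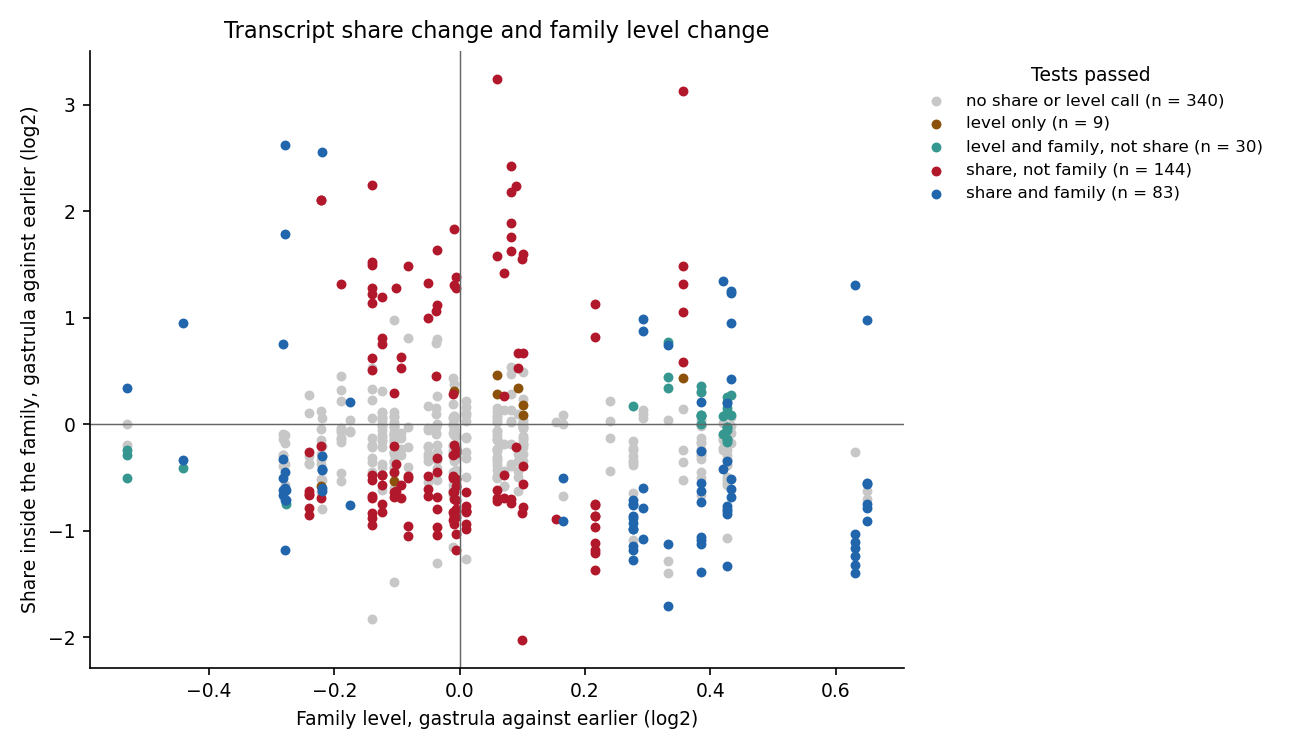
Each point is a transcript, placed by the log2 change of its family's level (horizontal axis) and the log2 change of its share inside the family (vertical axis), gastrula against earlier stages, and coloured by the tests it passed. The 144 red points, with a call on share in a family without a call, lie on both sides of 0, and the blue points at the far right are mostly transcripts that lost share in families that rose. Losses of share also outnumbered gains over all tested transcripts.

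Exchanges were spread over most families. Of the 45 families with more than 1 entry, 44 held at least 1 transcript with a different share and 32 held both gains and losses. These were 19 of the 28 families whose level did not pass the test and 13 of the 19 whose level did. The percentage of family counts redistributed between gastrula and earlier libraries was 9.39% in the median family and over 10% in 20 families. In 10 of these 20 the family level did not pass the test. In 27 families the redistribution exceeded the highest value between any 2 replicate libraries of a stage, although a comparison of means carries less noise than a single pair. Trp-CCA, the family of tryptophan tRNA, was the exception with no call on share, and 1.92% of its counts were redistributed. Taken singly, this was 2.10% at shield and 5.87% at bud, where the highest replicate value was 4.59%. Resolved transcripts held only 24.4% of this family in gastrula and 26.2% earlier.

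The Ser-CGA family, which reads the serine codon UCG, had the largest redistribution, with 36.7% of its counts moved (53.7% at bud and 20.6% at shield) against at most 11.6% between replicates. A single transcript with 3 gene copies, tRNA-Ser-CGA-14, took over. It held 42.8% and 43.6% at shield and 79.0% and 75.6% at bud, against 19.4% to 29.8% (median 22.2%) in the 8 earlier libraries. All 4 gastrula libraries were above all earlier ones, and the bud libraries above the shield libraries. The log2 change of its share was 1.31 ± 0.08 (SE, DESeq2 adjusted p 1.51e-56). The adjusted p was 1.6e-06 with edgeR and 1.9e-08 in DESeq2 with libraries in 2 sets in place of 6 stages. The size of such small p values thus depended on the test used. The neighbours of tRNA-Ser-CGA-14 in the family gave way together. tRNA-Ser-CGA-4 held 11.5% and 11.4% at shield and 3.68% and 4.28% at bud, against 14.6% to 19.1% (median 17.3%) in the 8 earlier libraries. tRNA-Ser-CGA-11 held 11.9% and 12.4% at shield and 3.58% and 5.27% at bud, against 14.9% to 18.1% (median 16.3%) in the 8 earlier libraries. The same order, with bud lowest and shield between bud and the earlier stages, was seen for tRNA-Ser-CGA-25 and tRNA-Ser-CGA-6. tRNA-Ser-CGA-25 averaged 5.63% ± 2.67 in the 4 gastrula libraries and 12.2% ± 1.78 in the 8 earlier ones (SD), and tRNA-Ser-CGA-6 averaged 2.81% ± 1.50 in the 4 gastrula libraries and 6.68% ± 0.899 in the 8 earlier ones (SD). The log2 changes of share of these 4 transcripts lay between -1.40 and -1.17, with DESeq2 adjusted p values of at most 7.06e-11. In terms of diversity, the family held the equivalent of 3.00 ± 1.55 equally abundant entries in gastrula, against 7.06 ± 0.541 in the earlier libraries (SD).

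The Ser-CGA family as a whole also rose. It made up 0.167% and 0.158% of nuclear counts at shield and 0.282% and 0.242% at bud, against 0.126% to 0.149% (median 0.136%) in the 8 earlier libraries, a log2 change of 0.63 ± 0.10 (SE, DESeq2 adjusted p 1.49e-08). The gain of tRNA-Ser-CGA-14 was larger as a level than as a share, with log2 changes of 2.09 (DESeq2 adjusted p 3.04e-74) for level and 1.31 for share. Levels of transcripts and of families were scaled by separate size factors. Changes of share and of family therefore do not add up exactly to a change of level, here or in other families. The 4 transcripts named above that lost share were lower in level as well, with log2 level changes of -0.55 (DESeq2 adjusted p 0.00162) for tRNA-Ser-CGA-4, -0.40 (DESeq2 adjusted p 0.0307) for tRNA-Ser-CGA-11, -0.48 (DESeq2 adjusted p 0.0369) for tRNA-Ser-CGA-25 and -0.63 (DESeq2 adjusted p 0.00227) for tRNA-Ser-CGA-6. The other 2 that lost share, tRNA-Ser-CGA-17 and tRNA-Ser-CGA-23, did not pass the level test.

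The Ser-UGA family, which reads the serine codon UCA, showed the same combination with more noise. tRNA-Ser-UGA-19 held 24.9% and 36.1% at shield and 70.0% and 63.6% at bud, against 15.7% to 32.1% (median 22.6%) in the 8 earlier libraries. Shield replicate 1 overlapped the earlier libraries, and both bud libraries lay far above all others. The log2 change of its share was 0.98 ± 0.18 (SE, DESeq2 adjusted p 2.16e-06), and at shield alone it was 0.41 with an adjusted p of 0.538 in DESeq2. The entry it replaced at the top of the family was an unresolved group of 7 names that starts with tRNA-Ser-UGA-1, which held 22.1% and 29.5% at shield and 12.7% and 18.0% at bud, against 23.5% to 35.6% (median 33.7%) in the 8 earlier libraries. Replicate libraries of a stage differed by up to 26.0% of the counts inside this family, against 25.7% between gastrula and earlier. The level of the family rose by 0.65 ± 0.15 (SE, DESeq2 adjusted p 0.000122) on the log2 scale.

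Gly-CCC, which reads the glycine codon GGG, had the largest redistribution among families whose level did not pass the test of gastrula against earlier stages. Of its counts 32.1% were redistributed, though a single pair of replicates was as much as 24.3% apart. tRNA-Gly-CCC-20 held 35.2% and 35.8% at shield and 60.5% and 62.7% at bud, against 19.0% to 25.2% (median 20.8%) in the 8 earlier libraries. tRNA-Gly-CCC-53, the leading transcript in 7 of the 8 earlier libraries, held 22.7% and 22.8% at shield and 11.5% and 9.74% at bud, against 26.2% to 34.4% (median 30.9%) in the 8 earlier libraries. The 2 transcripts exchanged places in all 4 gastrula libraries, where tRNA-Gly-CCC-20 led. Their log2 changes of share were 1.13 ± 0.11 (SE, DESeq2 adjusted p 1.22e-21) and -0.96 ± 0.12 (SE, DESeq2 adjusted p 8.68e-14). In all, 2 of the 11 detected transcripts of the family gained and 9 lost, so that every detected member had a different share. The family made up 0.441% and 0.487% of nuclear counts at shield and 0.473% and 0.701% at bud, against 0.366% to 0.529% (median 0.480%) in the 8 earlier libraries, with a log2 change of 0.22 ± 0.12 (SE, DESeq2 adjusted p 0.117). Without bud replicate 1 that change was 0.34 and passed the test, and without bud replicate 2 it was 0.05.

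Arg-UCG, which reads the arginine codon CGA, was the family in which the leading transcript changed in every library, with tRNA-Arg-UCG-1 on top in 4 of 4 gastrula libraries and tRNA-Arg-UCG-8 in 8 of 8 earlier ones. tRNA-Arg-UCG-1, with 5 gene copies, held 39.9% and 41.0% at shield and 51.9% and 51.6% at bud, against 23.4% to 32.7% (median 26.6%) in the 8 earlier libraries. tRNA-Arg-UCG-8, with 27 gene copies, held 33.7% and 31.8% at shield and 13.9% and 19.0% at bud, against 43.4% to 57.6% (median 50.7%) in the 8 earlier libraries. Shield and bud libraries of both transcripts were clear of the earlier range. The log2 changes of share were 0.75 ± 0.12 (SE, DESeq2 adjusted p 1.41e-08) and -1.13 ± 0.13 (SE, DESeq2 adjusted p 9.65e-16). A minor member, tRNA-Arg-UCG-6, had 0.629% and 0.648% at shield and 0.267% and 0.380% at bud, against 1.16% to 3.69% (median 1.25%) in the 8 earlier libraries. Its highest earlier value belonged to egg replicate 1, and without that library its log2 change was -1.46, beside -1.70 with all libraries. The family made up 0.978% and 1.01% of nuclear counts at shield and 1.39% and 1.34% at bud, against 0.868% to 1.05% (median 0.955%) in the 8 earlier libraries. Its log2 change of 0.33 ± 0.07 (SE, DESeq2 adjusted p 2.36e-05) came with 0.59 at bud (DESeq2 adjusted p 1.02e-09) and 0.07 at shield (DESeq2 adjusted p 0.571), where both libraries lay in the earlier range. In the Arg-CCG family, which reads CGG and fell, tRNA-Arg-CCG-2, with 1 gene copy, held 17.0% and 22.8% at shield and 50.1% and 40.9% at bud, against 12.7% to 20.2% (median 15.5%) in the 8 earlier libraries, and shield replicate 1 overlapped the earlier range. This transcript was chosen after its values were seen.

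**Figure D3:**
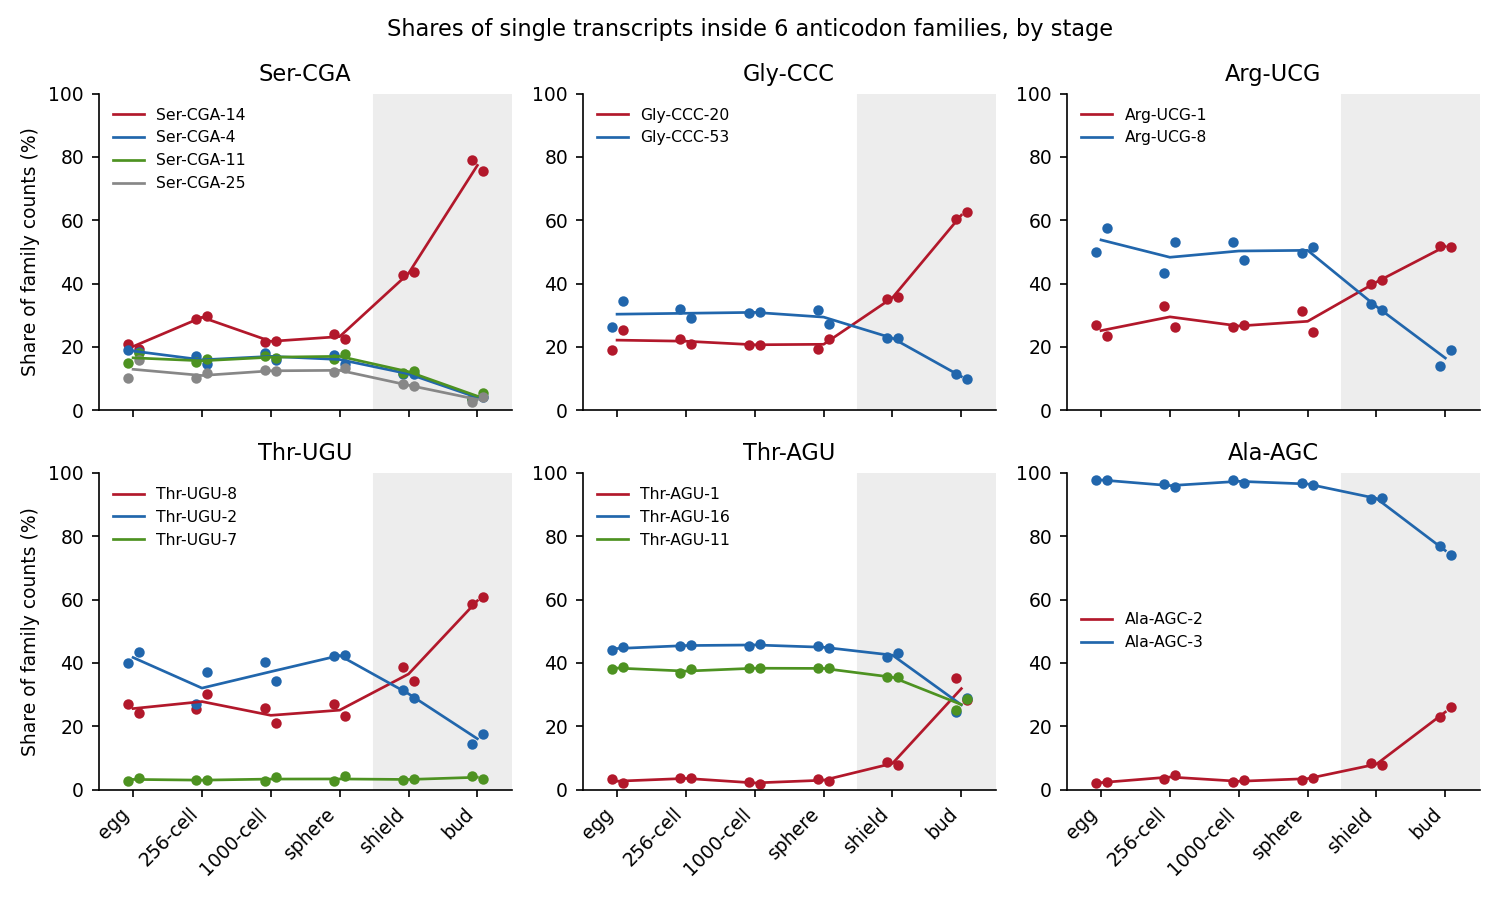
Shares of named transcripts in the counts of their anticodon family (percent, vertical axis) at the 6 stages in order of time, with a point per library, a line through the mean of the 2 libraries and shading over shield and bud. Most lines change little from egg to sphere, shift at shield and shift further at bud, where tRNA-Ser-CGA-14 reaches 79.0% and tRNA-Gly-CCC-20 62.7%. In Gly-CCC, Arg-UCG and Thr-UGU the line of the transcript that gained crosses that of the earlier leader. In Thr-AGU the lines come to similar values at bud, with tRNA-Thr-AGU-1 slightly above the others in the mean, and in Ala-AGC they come closer together without crossing.

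All 3 threonine families took part, in different ways. Thr-UGU, which reads the codon ACA, had a log2 change of 0.29 ± 0.08 (SE, DESeq2 adjusted p 0.000629) as a family. It made up 0.682% and 0.758% of nuclear counts at shield and 1.19% and 1.09% at bud, against 0.693% to 0.817% (median 0.761%) in the 8 earlier libraries. The rise was at bud (0.66 against the earlier stages, DESeq2 adjusted p 2.99e-10), and the change at shield was -0.07 (DESeq2 adjusted p 0.571). Within it tRNA-Thr-UGU-8 held 38.7% and 34.3% at shield and 58.6% and 60.7% at bud, against 21.1% to 30.2% (median 25.6%) in the 8 earlier libraries. The log2 change of share was 0.88 ± 0.12 (SE, DESeq2 adjusted p 6.69e-12). tRNA-Thr-UGU-2, the leader in 7 of the 8 earlier libraries and chosen here after its values were seen, held 31.5% and 29.0% at shield and 14.5% and 17.6% at bud, against 26.9% to 43.6% (median 40.0%) in the 8 earlier libraries, where only 256-cell replicate 1 of the earlier libraries reached below the shield values. Another transcript of the family, tRNA-Thr-UGU-7, averaged 3.55% ± 0.595 in the 4 gastrula libraries and 3.22% ± 0.595 in the 8 earlier ones (SD), with a log2 change of 0.13 ± 0.19 (SE, DESeq2 adjusted p 0.765), and did not pass. The study's text names it for a northern blot, whose legend and probe name tRNA-Thr-UGU-8 instead.

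Thr-AGU, which reads ACU and ACC after its first anticodon base is converted to inosine, was lower as a family, with a log2 change of -0.22 ± 0.09 (SE, DESeq2 adjusted p 0.0348), a call that was lost in 7 of the 12 settings with a library left out. It made up 1.96% and 2.18% of nuclear counts at shield and 2.42% and 2.63% at bud, against 2.35% to 3.01% (median 2.81%) in the 8 earlier libraries. Taken singly, the change was -0.40 at shield (DESeq2 adjusted p 0.00568) and -0.04 at bud (DESeq2 adjusted p 0.754), where both libraries lay in the earlier range. Inside it tRNA-Thr-AGU-1 held 8.76% and 7.78% at shield and 35.3% and 28.4% at bud, against 1.90% to 3.54% (median 2.95%) in the 8 earlier libraries. The 2 transcripts that had led before bud were nearly constant from egg to sphere. tRNA-Thr-AGU-16 held 41.8% and 43.1% at shield and 24.5% and 29.0% at bud, against 44.2% to 46.1% (median 45.2%) in the 8 earlier libraries. tRNA-Thr-AGU-11 held 35.4% and 35.5% at shield and 25.1% and 28.6% at bud, against 36.9% to 38.8% (median 38.3%) in the 8 earlier libraries. At bud the 3 transcripts came to similar shares. The log2 changes of share were 2.56 ± 0.16 (SE, DESeq2 adjusted p 8.22e-53), -0.42 ± 0.08 (SE, DESeq2 adjusted p 4.72e-06) and -0.30 ± 0.07 (SE, DESeq2 adjusted p 0.000516) in the order named. tRNA-Thr-AGU-16 was not called with libraries in 2 sets in place of 6 stages (-0.38, DESeq2 adjusted p 0.0665), and tRNA-Thr-AGU-11 was not called without bud replicate 1 (-0.26, DESeq2 adjusted p 0.0791).

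Thr-CGU, which reads ACG, had the most negative change of all families, -0.53 ± 0.09 (SE, DESeq2 adjusted p 7.71e-08) on the log2 scale. It made up 1.52% and 1.79% of nuclear counts at shield and 1.22% and 1.46% at bud, against 1.96% to 2.46% (median 2.22%) in the 8 earlier libraries. Within it tRNA-Thr-CGU-1 held 42.0% and 43.6% at shield and 53.8% and 52.2% at bud, against 34.0% to 41.8% (median 37.2%) in the 8 earlier libraries, and its share rose by 0.34 ± 0.07 (SE, DESeq2 adjusted p 4.09e-05) on the log2 scale. Its level changed by -0.05 (DESeq2 adjusted p 0.924) on that scale and did not pass the test. When the share was taken of resolved transcripts alone, the log2 change was 0.10 and no longer passed (DESeq2 adjusted p 0.639). An unresolved group starting with tRNA-Thr-CGU-4 held 41.8% and 48.9% at shield and 39.0% and 40.4% at bud, against 46.6% to 56.6% (median 50.8%) in the 8 earlier libraries. Its log2 change of -0.27 ± 0.11 (SE, DESeq2 adjusted p 0.0606) did not pass the test.

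Alanine tRNAs changed inside their families while no alanine family passed the test of level. Ala-AGC consists of 2 detected transcripts, so that 1 gained what the other lost. tRNA-Ala-AGC-2, with 3 gene copies, held 8.27% and 7.80% at shield and 23.0% and 26.0% at bud, against 2.06% to 4.48% (median 3.05%) in the 8 earlier libraries. tRNA-Ala-AGC-3 held the remainder, which was 91.7% and 92.2% at shield and 77.0% and 74.0% at bud, against 95.5% to 97.9% in the 8 earlier libraries. On the log2 scale the gain was large, at 2.23 ± 0.14 (SE, DESeq2 adjusted p 1.60e-52), and the loss was small, at -0.22 ± 0.06 (SE, DESeq2 adjusted p 0.00181). The call on tRNA-Ala-AGC-3 was lost in 10 of the 12 settings with a library left out, although its libraries never overlapped. In Ala-CGC, which reads GCG, tRNA-Ala-CGC-2 held 14.4% and 17.3% at shield and 41.5% and 42.9% at bud, against 9.45% to 13.6% (median 10.3%) in the 8 earlier libraries. tRNA-Ala-CGC-1, chosen after its values were seen, remained the leader with 81.3% and 71.6% at shield and 55.3% and 50.9% at bud, against 77.7% to 86.4% (median 82.8%) in the 8 earlier libraries, where shield replicate 1 lay within the earlier range. The log2 changes of share were 1.28 ± 0.13 (SE, DESeq2 adjusted p 9.96e-22) and -0.37 ± 0.08 (SE, DESeq2 adjusted p 0.000119).

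Minor transcripts also gained in the valine, tyrosine, proline, glutamine and lysine families. tRNA-Val-UAC-10, with 1 gene copy, had the largest log2 gain among transcripts named by the rule and held 5.06% and 4.13% at shield and 21.5% and 19.1% at bud, against 1.11% to 2.32% (median 1.62%) in the 8 earlier libraries. In the same family tRNA-Val-UAC-22, with 36 gene copies, held 14.8% and 11.97% at shield and 9.50% and 8.02% at bud, against 15.9% to 19.2% (median 17.5%) in the 8 earlier libraries. Gastrula and earlier libraries did not overlap for either. The log2 changes of share were 2.62 ± 0.13 (SE, DESeq2 adjusted p 3.15e-93) and -0.71 ± 0.12 (SE, DESeq2 adjusted p 1.19e-07), and the Val-UAC family, which reads GUA, was lower, with a level change of -0.28 ± 0.09 (SE, DESeq2 adjusted p 0.00426). tRNA-Val-AAC-1 held 8.84% and 9.23% at shield and 26.2% and 23.9% at bud, against 4.45% to 6.81% (median 5.89%) in the 8 earlier libraries, in a family whose level had a log2 change of -0.01 ± 0.12 (SE, DESeq2 adjusted p 0.965).

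tRNA-Tyr-GUA-1, of the only tyrosine family, held 6.28% and 7.36% at shield and 25.4% and 23.6% at bud, against 2.89% to 5.32% (median 3.40%) in the 8 earlier libraries. It remained far behind tRNA-Tyr-GUA-2, a transcript with 135 gene copies that was chosen after its values were seen and held 87.5% and 86.0% at shield and 69.6% and 71.6% at bud, against 87.5% to 91.0% (median 89.3%) in the 8 earlier libraries. The gain of tRNA-Tyr-GUA-1 was 1.83 ± 0.13 (SE, DESeq2 adjusted p 1.16e-44) on the log2 scale. The loss of tRNA-Tyr-GUA-2 was small at -0.19 ± 0.06 (SE, DESeq2 adjusted p 0.00825), and its call was lost in 11 of the 12 settings with a library left out. In Pro-CGG, which reads CCG, tRNA-Pro-CGG-1 held 23.4% and 25.7% at shield and 45.3% and 43.1% at bud, against 17.8% to 21.5% (median 18.9%) in the 8 earlier libraries. tRNA-Pro-CGG-3, with 34 gene copies, held 52.5% and 49.9% at shield and 38.1% and 41.3% at bud, against 53.1% to 59.3% (median 57.3%) in the 8 earlier libraries. The pair was close at bud, where tRNA-Pro-CGG-1 led in both libraries, while tRNA-Pro-CGG-3 led at shield and in all earlier libraries. Their log2 changes of share were 0.76 ± 0.10 (SE, DESeq2 adjusted p 6.29e-12) and -0.33 ± 0.08 (SE, DESeq2 adjusted p 0.000324), and without bud replicate 1 the loss was not called (-0.30, DESeq2 adjusted p 0.0621).

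tRNA-Gln-UUG-4, which reads CAA, held 2.46% and 4.16% at shield and 13.1% and 11.3% at bud, against 0.896% to 1.76% (median 1.51%) in the 8 earlier libraries, a log2 change of 2.11 ± 0.21 (SE, DESeq2 adjusted p 9.96e-22). Among the CAG readers of Gln-CUG, tRNA-Gln-CUG-2 held 23.2% and 24.2% at shield and 19.5% and 21.4% at bud, against 26.0% to 28.8% (median 26.6%) in the 8 earlier libraries, a change of -0.29 ± 0.07 (SE, DESeq2 adjusted p 0.000568), which was not called without shield replicate 1 or bud replicate 1. For tRNA-Glu-CUC-17 the values were 26.9% and 29.2% at shield and 25.1% and 26.3% at bud, against 29.2% to 34.1% (median 32.0%) in the 8 earlier libraries, and its call (-0.25, DESeq2 adjusted p 0.0406) was lost whichever library was left out. These losses were small next to the gains. The Glu-CUC family, outside the rule for named families, rose by 0.39 ± 0.07 (SE, DESeq2 adjusted p 1.49e-07) on the log2 scale. It made up 5.52% and 5.58% of nuclear counts at shield and 5.46% and 6.24% at bud, against 4.03% to 5.07% (median 4.50%) in the 8 earlier libraries. tRNA-Lys-UUU-6, with 128 gene copies, had 4.24% and 1.59% at shield and 2.58% and 1.70% at bud, against 0.223% to 1.42% (median 0.411%) in the 8 earlier libraries. Its log2 change was 2.42 ± 0.31 (SE, DESeq2 adjusted p 1.73e-13), and bud against shield it was -0.45. In that family 5 transcripts gained, yet resolved transcripts held only 5.73% of its counts in gastrula and 3.59% earlier.

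Some exchanges took place between unresolved groups, of which 5 gained (9.26%) and 12 lost (22.2%) among the 54 detected (31.5% called), tested in the same way with groups as further entries. The largest was in Asn-GUU, the only asparagine family. A group of 3 names starting with tRNA-Asn-GUU-82 held 28.8% and 35.7% at shield and 55.7% and 57.0% at bud, against 14.0% to 25.4% (median 23.0%) in the 8 earlier libraries. A group of 3 names starting with tRNA-Asn-GUU-200 held 40.5% and 41.8% at shield and 28.2% and 30.1% at bud, against 47.9% to 57.4% (median 50.2%) in the 8 earlier libraries. The first group led at bud and the second at shield and in all 8 earlier libraries. Their log2 changes of share were 0.99 ± 0.18 (SE, DESeq2 adjusted p 5.33e-07) and -0.55 ± 0.09 (SE, DESeq2 adjusted p 5.39e-09). Of the 21 resolved asparagine transcripts 11 lost share, and together the resolved ones held 16.3% of the family in gastrula and 25.7% earlier. The family rose by 0.28 ± 0.10 (SE, DESeq2 adjusted p 0.0194) on the log2 scale, and this call was lost without shield replicate 1, bud replicate 1 or bud replicate 2.

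Families that changed as a whole included some in which only a small percentage of counts was redistributed inside. SeC-UCA, whose single transcript inserts selenocysteine at recoded UGA codons and so allows no exchange, rose most. It made up 0.0154% and 0.0147% of nuclear counts at shield and 0.0433% and 0.0385% at bud, against 0.00754% to 0.0134% (median 0.00989%) in the 8 earlier libraries, a log2 change of 1.35 ± 0.24 (SE, DESeq2 adjusted p 1.49e-07). All gastrula libraries were above all earlier ones, and both bud libraries were above both shield libraries. In Leu-AAG, which reads CUU and CUC, 4.50% of counts were redistributed, although 4 of its 13 detected transcripts gained share and 3 lost. The family made up 2.12% and 1.59% of nuclear counts at shield and 1.26% and 1.40% at bud, against 0.797% to 1.69% (median 1.19%) in the 8 earlier libraries, and rose by 0.43 ± 0.13 (SE, DESeq2 adjusted p 0.00484). Without shield replicate 1 or bud replicate 2 this rise was not called. Asp-GUC, the only aspartate family, made up 4.85% and 4.21% of nuclear counts at shield and 4.63% and 4.48% at bud, against 2.84% to 4.37% (median 3.51%) in the 8 earlier libraries, and rose by 0.42 ± 0.09 (SE, DESeq2 adjusted p 3.69e-05) with 6.11% redistributed. Inside Asp-GUC the redistribution was 10.9% at bud and 2.38% at shield, against at most 2.26% between replicates. Lys-CUU, which reads AAG, rose by 0.43 ± 0.08 (SE, DESeq2 adjusted p 1.60e-07) and more at bud than at shield.

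Among the families that fell, Ile-UAU, which reads AUA, had 1.45% of its counts redistributed. Of its 3 detected transcripts 2 lost share, but resolved transcripts held only 3.33% of the family in gastrula and 4.67% earlier. The remainder was an unresolved group of 19 names, inside which an exchange could not be seen. The family made up 0.544% and 0.588% of nuclear counts at shield and 0.698% and 0.550% at bud, against 0.672% to 0.795% (median 0.740%) in the 8 earlier libraries. Its log2 change was -0.28 ± 0.09 (SE, DESeq2 adjusted p 0.00769), not called without shield replicate 1 or bud replicate 2. Arg-CCG made up 0.450% and 0.423% of nuclear counts at shield and 0.334% and 0.388% at bud, against 0.472% to 0.621% (median 0.552%) in the 8 earlier libraries, a change of -0.44 ± 0.10 (SE, DESeq2 adjusted p 2.36e-05). Pro-CGG changed by -0.28 ± 0.09 (SE, DESeq2 adjusted p 0.00407), not called without shield replicate 1. Neither methionine family passed the test. Initiator iMet-CAU, which starts translation, made up 3.04% and 2.40% of nuclear counts at shield and 2.52% and 2.83% at bud, against 2.56% to 3.86% (median 3.37%) in the 8 earlier libraries, a change of -0.26 ± 0.12 (SE, DESeq2 adjusted p 0.0603). It passed with edgeR (adjusted p 0.0437), with TMM factors (-0.29) and without shield replicate 1 (-0.35). Elongator Met-CAU, which reads internal AUG codons, made up 1.67% and 1.56% of nuclear counts at shield and 1.67% and 2.04% at bud, against 1.57% to 2.51% (median 1.78%) in the 8 earlier libraries, a change of -0.04 ± 0.11 (SE, DESeq2 adjusted p 0.839), and it changed sign without bud replicate 1 or egg replicate 1.

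The 2 gastrula stages were then taken apart. At shield the share of 69 transcripts differed from the earlier stages (11.4% of 606), 45 higher (7.43%) and 24 lower (3.96%), and at bud that of 266 (43.9%), 68 higher (11.2%) and 198 lower (32.7%). These comparisons share the 8 earlier libraries. There were 61 transcripts called at both stages, all in the same direction, 8 called at shield only and 205 at bud only. Bud was also set against shield directly, where 125 shares differed (20.6%), 37 higher (6.11%) and 88 lower (14.5%). Of the 71 transcripts that gained in gastrula, 36 were higher at bud than at shield in this test, and of the 156 that lost, 63 were lower. The count at shield rested on few libraries, falling to 23 when shield replicate 1 was left out and to 37 when shield replicate 2 was. Likewise the count at bud was 153 without bud replicate 1, and the count of bud against shield was 47 to 75 with any 1 of the 4 gastrula libraries left out.

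Of the transcripts named here, those with the largest changes in points were chosen among calls in gastrula whose 4 libraries all lay outside the earlier range, so calls at either stage follow in part from the choice and are a description. Among these 12 largest gains, 10 were called at shield and 12 at bud, and 10 were higher at bud than at shield. Among the matching 12 losses, 2 were called at shield and 12 at bud, and 10 were lower at bud than at shield. The 2 losses already called at shield were tRNA-Arg-UCG-8 and tRNA-Ser-CGA-4. The gains not called at shield were tRNA-Pro-CGG-1 (0.33 on the log2 scale, DESeq2 adjusted p 0.153) and tRNA-Thr-CGU-1 (0.18, DESeq2 adjusted p 0.375). Per family, the redistribution against the earlier stages was larger at bud than at shield in 42 of 45 families, with medians of 13.0% at bud and 4.33% at shield. It exceeded the highest replicate value in 36 families at bud and in 10 at shield. At family level 8 of 47 families differed at shield (17.0%) and 17 at bud (36.2%), and 5 differed between bud and shield (10.6%), all higher at bud. Families not called in gastrula that passed at a single stage were Leu-UAG at shield and Gly-CCC and Pro-AGG at bud. Of the families called in gastrula, Leu-AAG, Ile-UAU and Thr-AGU passed at shield and not at bud. Ser-CGA, Ser-UGA, SeC-UCA, Thr-UGU, Arg-UCG, Arg-ACG, Asn-GUU, Lys-CUU, Pro-CGG, Pro-UGG and Val-UAC passed at bud and not at shield, which is not by itself a test of the difference between these stages.

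**Figure D4:**
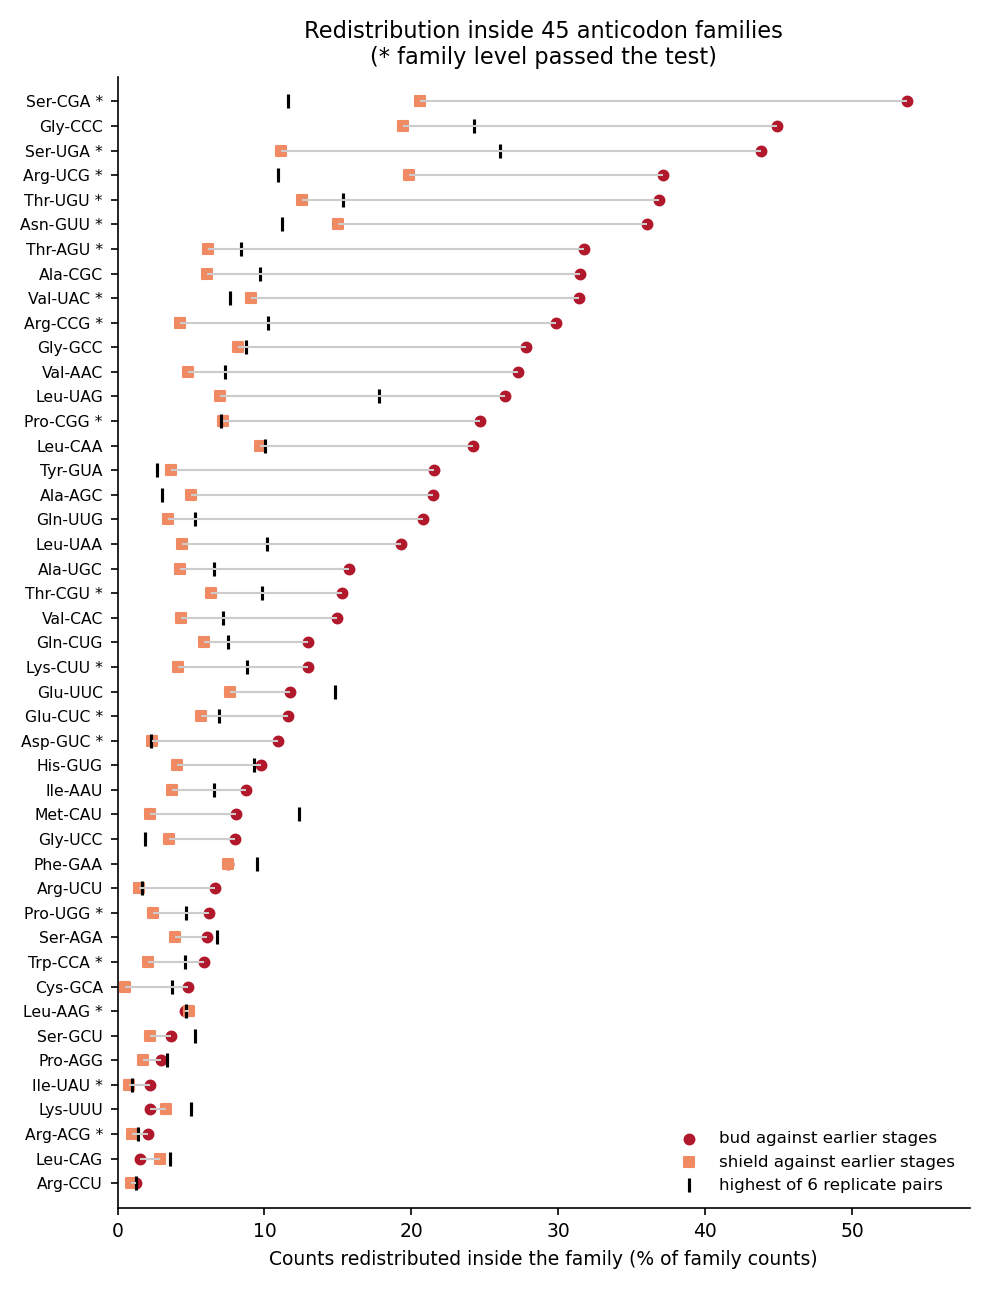
Percentage of family counts redistributed between the earlier stages and bud (circles) or shield (squares) in 45 anticodon families, sorted by the bud value, with the highest value between 2 replicates of a stage as a tick. The bud value lies to the right of the shield value in 42 families and right of the tick in 36, with Ser-CGA at 53.7%, and families marked with a star differed in level between gastrula and earlier stages.

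Leading entries changed in few families. In 7 of the 45 the entry with the largest mean share differed between gastrula and earlier libraries, and only in Arg-UCG did this hold library by library. The other 6 were Gly-CCC, Thr-UGU, Ser-UGA, Thr-CGU, Gly-GCC and Asn-GUU. In the other families, Ala-AGC and Tyr-GUA among them, the entry with the largest mean share was the same. The median share of a transcript in the earlier libraries was 1.49% for those that gained, 1.44% for those that lost and 0.504% for those not called. Transcripts with a call thus had the higher median shares.

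Gains and losses were also set beside the number of gene copies that the authors list for each transcript. The median was 2 copies for transcripts that gained, 1 for those that lost and 1 for those not called. Single-copy transcripts made up 46.5% of the gains, 54.5% of the losses and 65.5% of the rest. Among calls whose libraries did not overlap, the 12 largest gains in percentage points had at most 7 copies and the 12 largest losses up to 36, with 1 and 5 single-copy transcripts. This depends on the ranking, as tRNA-Lys-UUU-6, named for its log2 rise, had more copies than any of these. The serial number that closes a transcript's name had a median of 6 among gains, 16.5 among losses and 26 among the rest.

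By amino acid, the shares of transcripts called can be read against 37.5% of all tested. Glycine transcripts were called most often, with 11 of 44 higher and 18 lower. Valine had 4 of 44 higher and 19 lower, and asparagine had 11 of 21 lower. Leucine was the one amino acid with more gains than losses, 15 and 8 of 55. Histidine had 1 of 34 higher and 4 lower, and isoleucine 2 of 33 higher and 5 lower. The redistribution inside families was largest for asparagine at 25.4%, threonine at 18.7% and glycine at 17.3%, each the median over the families of that amino acid.

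By the first base of the anticodon, which pairs with the wobble position of the codon, calls were found in all 4 classes. Higher shares made up 8.16% (C) to 16.7% (U) of a class, beside 11.7% of all tested transcripts. Lower shares made up 23.0% (G) to 29.1% (C), beside 25.7% of all tested. Families starting with U had 24 of 144 transcripts higher and 37 lower, those with C 16 of 196 higher and 57 lower, those with G 16 of 135 higher and 31 lower, and those with A, in which this base is converted to inosine, 15 of 132 higher and 31 lower. The 4 classes held almost fixed parts of the nuclear pool. Families with U held 23.3% in gastrula and 23.7% earlier, those with C 29.3% in gastrula and 29.4% earlier, those with G 24.6% in gastrula and 24.3% earlier, and those with A 22.8% in gastrula and 22.6% earlier.

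Despite the exchanges, no difference in the diversity of the pool was detectable. The effective number of entries, which is the number of equally abundant entries that would give the same chance of drawing a pair of the same kind, was 49.1 ± 4.17 in the 4 gastrula libraries and 48.7 ± 4.56 in the 8 earlier ones (SD). The difference of 0.475 had a p of 0.869 in a two-sided exact permutation test of 4 libraries against 8, in which the smallest possible p was 0.00404. For families the effective number was 30.2 ± 1.45 in gastrula and 31.1 ± 1.75 earlier (SD, exact permutation p 0.392). Libraries of a stage are not independent of each other in this test.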

How the data were processed

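tRNA abundance was measured in 12 libraries by mim-tRNAseq. The authors trimmed reads with cutadapt 3.5, aligned them to GRCz11 tRNA references with mitochondrial tRNAs added, and deposited counts, in whole numbers and without normalization, of the reads that mapped uniquely to a transcript or unresolved group. The deposited table also lists gene copies per transcript, which the authors counted in the reference. All columns of samples were mapped to a label, with 0 left unmapped. A table of charged fractions was not used. Coordinates and sequences are not given here.

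From the counts, nuclear rows were summed into 47 anticodon families. The share test was a Wald test in DESeq2 1.42.0 (R 4.3.3), the package the study also used, with the family total of each library as normalization factor, stage as the only term and all 12 libraries in 1 fit. The contrast was the mean of shield and bud minus the mean of the 4 earlier stages. Levels of transcripts and of families were tested likewise with median-of-ratios size factors, estimated separately for each. In bud replicates 1 and 2 these factors were 0.925 and 1.23 for transcripts and 1.10 and 1.50 for families. A call was a Benjamini-Hochberg adjusted p of at most 0.05, counted among detected transcripts. DESeq2 adjusted over the rows kept by its own filter on mean counts, and where it gave no adjusted p none was filled in. With edgeR, transcripts were adjusted over detected ones only. The tests were tested on simulated data with known changes. Replicates of a stage differed beyond counting noise, with a chi-square per degree of freedom of 43.1 or more, so each counted as a sample. With stage as a term, the p-values of these tests rest on the spread between the 2 replicates of a stage. Differences among the stages within gastrula, or within the earlier set, do not enter that spread.

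Named transcripts were the 12 largest gains and 12 largest losses of share in percentage points, among those called and with gastrula and earlier libraries apart, the 5 largest log2 rises and falls among the same with a share of at least 1%, and 4 that the study had named. Another 4 were chosen after their values were seen. Named families were the 6 largest rises and 6 largest falls called, the 5 with the largest redistribution, both methionine families and SeC-UCA. The contrast, the lists and these rules were chosen with earlier results of these data known. Alternatives were the quasi-likelihood test of edgeR 4.0.16, TMM factors, total nuclear counts, other denominators and detection limits, 2 sets in place of 6 stages, no egg stage, a replicate block and each library left out. Depth sets a limit of 3 counts, which is 0.000379% of nuclear counts in the shallowest library, for counting error only. The labels gave no sequencing batch.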

Additional observations from a re-analysis of the deposited data

Results flagged for a closer look

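Bud and shield differed in the direct test of the share for many of the transcripts described above (DESeq2 adjusted p at most 0.05, 27 of 34 transcripts, beside 20.6% of all 606 tested). Most of the 34 were chosen for their change in gastrula, and over all transcripts the count of 125 was 47 to 75 with any 1 of the 4 gastrula libraries left out. Higher at bud than at shield, in log2 units, were tRNA-Val-UAC-10 (2.14), tRNA-Thr-AGU-1 (1.95), tRNA-Gln-UUG-4 (1.88), tRNA-Tyr-GUA-1 (1.85), tRNA-Ala-AGC-2 (1.61), tRNA-Val-AAC-1 (1.47), tRNA-Ala-CGC-2 (1.41), tRNA-Arg-CCG-2 (1.19), tRNA-Ser-UGA-19 (1.13), tRNA-Pro-CGG-1 (0.85), tRNA-Ser-CGA-14 (0.84), tRNA-Gly-CCC-20 (0.79) and tRNA-Thr-UGU-8 (0.71). Lower at bud than at shield were tRNA-Ser-CGA-4 (-1.52), tRNA-Ser-CGA-11 (-1.45), tRNA-Ser-CGA-6 (-1.40), tRNA-Ser-CGA-25 (-1.22), tRNA-Gly-CCC-53 (-1.10), tRNA-Arg-UCG-8 (-0.99), tRNA-Thr-UGU-2 (-0.91), tRNA-Thr-AGU-16 (-0.67), tRNA-Val-UAC-22 (-0.61), tRNA-Ala-CGC-1 (-0.53), tRNA-Thr-AGU-11 (-0.40), tRNA-Pro-CGG-3 (-0.37), tRNA-Tyr-GUA-2 (-0.30) and tRNA-Ala-AGC-3 (-0.28). Families higher at bud than at shield in the same kind of test were SeC-UCA (1.51), Ser-CGA (0.76), Thr-UGU (0.73), Arg-UCG (0.52) and Lys-CUU (0.49), of which Thr-UGU is outside the rule for named families.

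Single libraries stood far from the other libraries of their set in 3 of 102 sets examined. The limit used is set to give about 5 in 100 among like libraries. These sets mixed stages, and shield and bud often differed, so the count cannot be read against that rate. tRNA-Arg-UCG-6 held 3.69% of its family in egg replicate 1, the highest of the 8 earlier libraries. Elongator Met-CAU made up 2.51% of nuclear counts in that same library, again the highest. tRNA-Thr-AGU-11 held 36.9% of its family in 256-cell replicate 1, the lowest of the 8 and still above every gastrula library.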

How the results depend on the processing

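Of the 34 named shares, 25 kept their direction and their side of the threshold under every alternative, and all 34 kept their direction. Calls were lost in 45 of 612 alternative values, mostly for tRNA-Glu-CUC-17, tRNA-Tyr-GUA-2 and tRNA-Ala-AGC-3. Of 17 named family levels, 9 kept both, and Met-CAU alone reversed (0.0518 without the egg stage, and -0.121 to 0.0382 with each library left out). With a detection limit of 0.05% fewer transcripts were counted, and 97 shares of 187 (40 higher, 57 lower) and 78 levels (46 higher, 32 lower) were called. Leaving out each library in turn gave 163 to 222 shares for gastrula against earlier, 23 to 70 for shield, 153 to 268 for bud, 47 to 123 for bud against shield, 116 to 190 transcript levels and 13 to 23 family levels. It gave 10.0% to 13.2% for the redistribution, the highest without shield replicate 1. The effective number differed by -1.01 to 2.16 entries and was lower in gastrula without 256-cell replicate 1 (-0.6545), 1000-cell replicate 2 (-0.302), shield replicate 1 (-1.01) or bud replicate 2 (-0.232). The causes were not tested.

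With the replicate number as a block, 263 shares were called (75 higher, 188 lower), 227 of them shared with the 227 reported, and 229 transcript levels and 24 family levels. The labels state no pairing, and same-numbered libraries did not deviate together in all stage pairs (r between -0.263 and 0.879, over 0.1 in 13 of 15). With edgeR 232 shares were called (77 higher, 155 lower), of which 223 were shared with those reported. With only 2 sets of libraries the count was 184. Precision is limited by 2 libraries per stage, by 977425 counts in the shallowest library and by reads that cannot be told apart between near-identical transcripts.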
